A study of Mus musculus with 12 samples.

Results

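The comparison described here set ET cells treated for 6 h with 5 nM TCDD against ET cells given its solvent alone for the same time. The members are the arrays whose titles name 6 h, 4 of the 12 in the series: TCDD arrays 1 and 2, and solvent arrays 1 and 2, the solvent being 1,4-dioxane at 0.05% of the volume. Across genes, the comparison covers the 15762 probe sets that are not manufacturer's controls and whose mean log2 level over the 12 arrays was 4 or more. A probe set is a group of short oligonucleotides read together for 1 transcript. The other 8 arrays hold the same treatments after 2 h and 4 h, and serve here to measure the spread and to show which genes respond late. ET is described by the labels as a cortical thymic epithelial line from the mouse fetus, and it was grown in 24-well plates to near confluence. Being 1 line in culture, it has none of the thymocytes of a thymus, and the labels name neither the concentration of dioxane in the TCDD wells nor any genetic change.

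TCDD is a chlorinated dioxin that is hardly metabolised. The aryl hydrocarbon receptor, AhR, waits for ligand in the cytoplasm in a complex with the chaperone Hsp90. With ligand it moves to the nucleus, pairs with Arnt and binds DNA at elements built around the letters GCGTG, through which it switches on enzymes that oxidise and conjugate foreign compounds and also its own repressors. In the thymus, AhR ligands cause involution, and both thymocytes and the epithelial cells that support them carry the receptor.

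Some facts of the series bear on every value. Levels are deposited log2 values, so a difference of 1 is 2-fold, and the array medians were all 5.1. The labels of both 6 h solvent arrays give 4 h in the description and protocol, against 6 h in the title and time field; titles were followed. The treatment field of the 4 h TCDD array 2 names dioxane, against TCDD in its title. The study calls its arrays biological duplicates without saying which step was repeated, so the p-values measure the spread between these arrays, which may in part be technical. Clustering cut the arrays into 4 clusters, and the largest, of 7 arrays, is called the larger set. The other 5 arrays, pooled from the remaining clusters, are called the smaller set and need not be alike. At 6 h, array 1 of both treatments lay in the larger set and array 2 of both in the smaller one. At 4 h, TCDD array 1 lay in the smaller set and the other 3 arrays in the larger one, so every 4 h change given below also holds a difference between the sets. Metallothionein Mt1, a zinc-binding stress protein, shows this split, with 7.4 and 10.8 in the solvent arrays 1 and 2, and 7.1 and 10.6 in the TCDD arrays. At 6 h, subtracting within the replicate number, array 1 from array 1 and array 2 from array 2, therefore also subtracts within the array set. Signs of RNA quality were alike at 6 h: the 3′ minus 5′ difference of the Gapdh control was 0 and 0.1 in the solvent arrays, 0.1 and 0 in the TCDD arrays, and that of the actin control 0.7 and 0.5 against 0.8 and 0.6. Of the cortical epithelial markers on the array, 9 of 17 lay above the filter. Krt8 and Ccl25 were among these, with means over the 12 arrays of 5.04 and 5.90. Epcam, Krt18, Prss16, Cdh1 and Ly75 lay below it. Of the medullary markers, 5 of 12 lay above the filter, with Krt5, Krt14 and Aire at 4.97, 4.37 and 4.99. All 16 fibroblast and mesenchyme markers lay above it, at a median percentile of 98.2 among all probe sets, against 37.4 for the cortical markers. The defining epithelial markers thus lay on both sides of the filter and did not clearly bear out the epithelial label.

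Promoters are shown first, since GCGTG is the core of the element that AhR binds. They are those of 4 of the 6 named genes that passed the test described below with the array set as a block; the others are Aldh3a1 and Gpc1. Tiparp did not pass it and is not shown. Windows of 250 bases before to 50 bases after the start of transcription were taken from RefSeq on build GRCm38.p6 and are printed 5′ to 3′ on the gene's strand. Capitals mark GCGTG, or CACGC where it lies on the opposite strand. The windows are Cyp1a1 at chr9:57697363-57697662 on the plus strand, Cyp1b1 at chr17:79715012-79715311 on the minus strand, Cpox at chr16:58669958-58670257 on the plus strand and Nqo1 at chr8:107403156-107403455 on the minus strand.
Cyp1a1: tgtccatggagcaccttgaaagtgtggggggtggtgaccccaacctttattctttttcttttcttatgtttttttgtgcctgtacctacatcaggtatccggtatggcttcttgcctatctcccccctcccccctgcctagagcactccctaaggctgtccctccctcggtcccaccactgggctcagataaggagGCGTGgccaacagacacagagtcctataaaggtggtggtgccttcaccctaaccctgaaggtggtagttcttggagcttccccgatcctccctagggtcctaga
Cyp1b1: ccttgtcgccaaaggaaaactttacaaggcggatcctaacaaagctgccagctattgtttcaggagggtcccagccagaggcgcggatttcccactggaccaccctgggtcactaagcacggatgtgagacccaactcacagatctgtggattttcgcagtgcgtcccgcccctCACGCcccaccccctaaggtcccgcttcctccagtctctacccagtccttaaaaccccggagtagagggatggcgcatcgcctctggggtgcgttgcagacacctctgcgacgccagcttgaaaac
Cpox: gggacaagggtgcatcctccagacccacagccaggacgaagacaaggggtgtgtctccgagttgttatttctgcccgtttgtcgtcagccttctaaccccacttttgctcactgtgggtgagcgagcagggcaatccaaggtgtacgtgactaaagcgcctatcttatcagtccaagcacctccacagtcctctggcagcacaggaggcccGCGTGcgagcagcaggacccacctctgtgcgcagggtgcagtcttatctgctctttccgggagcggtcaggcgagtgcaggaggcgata
Nqo1: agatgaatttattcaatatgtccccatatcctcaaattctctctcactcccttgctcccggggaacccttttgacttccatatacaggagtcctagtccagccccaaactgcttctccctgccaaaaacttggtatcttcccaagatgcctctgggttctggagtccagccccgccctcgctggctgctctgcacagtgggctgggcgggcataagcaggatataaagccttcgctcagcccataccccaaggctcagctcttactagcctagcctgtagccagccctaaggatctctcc
The core stood once in the Cyp1a1 window, 54 bases before the start, once in that of Cyp1b1, 76 bases before it on the opposite strand, and once in that of Cpox, 39 bases before it, while the Nqo1 window held none. The same letters on either strand occur in 32.4% of all 32851 RefSeq windows of this length, and in 51.0% of the 7575 tested genes with a window. The longer form TNGCGTG, on either strand and always overlapping the core, is found in 5.07% of all windows and in none of these 4. The well-known AhR enhancer of Cyp1a1 lies farther upstream, outside the window.

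At 6 h, 1 probe set passed the test across genes, a limma fit with 1 mean for each of the 6 groups of the series and Benjamini-Hochberg adjustment, at an adjusted p under 0.05. It is that of Cyp1a1, and it makes up 0.00634% of the 15762 tested. A fit with the replicate number within each time as a block also called 0.00634%. With the array set as a block, 8 probe sets passed, 0.0508% of those tested and all higher with TCDD: Cyp1a1, both probe sets of Cpox, 1 each of Nqo1, Aldh3a1, Gpc1 and Cyp1b1, and 1417225_at, which has no single gene symbol. The sets were read from these same values, so those p-values can be too small. At an unadjusted p under 0.05 there were 336 probe sets, 2.13% of those tested, 220 of them higher and 116 lower.

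The differences within the replicate number held more probe sets far up than far down. Both differences reached 1 or more in 42 probe sets, 0.266% of those tested, of 29 named genes. Both were −1 or less in 2 probe sets, 0.0127%, and both belong to Nrep. At a difference of 0.5 or more in both, 369 probe sets were higher, 2.34%, and 81 lower, 0.514%. These counts carry no test. Across all tested probe sets, the within-number differences correlated with each other at 6 h with a Pearson r of 0.47, against 0 at 2 h and −0.2 at 4 h, a description over probe sets that share arrays.

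**Figure D1:**
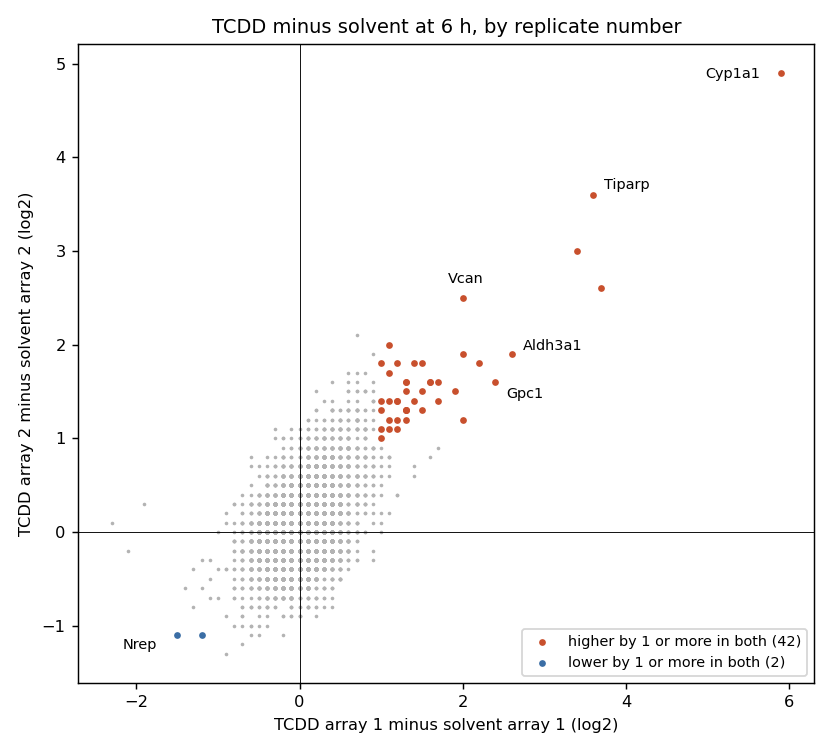
Each point is a tested probe set, with the log2 difference of TCDD array 1 from solvent array 1 on the x axis and that of array 2 on the y axis at 6 h; coloured points reach 1 or more in both. Cyp1a1 lies alone at 5.9 and 4.9, followed by 3 points of Tiparp, and the 42 points on the upper side outnumber the 2 of Nrep on the lower side.

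Cyp1a1, the cytochrome P450 that is the classic readout of AhR, stood at 4.2 and 5.5 in the solvent arrays and at 10.1 and 10.4 with TCDD. The groups were far apart, and only solvent array 2 lay above the level of all other solvent arrays of the series, which ran from 4.0 to 4.3. Means were 4.85 ± 0.92 (SD, n = 2) in solvent and 10.25 ± 0.21 (SD, n = 2) with TCDD. Cyp1a1 rose by 5.40 ± 0.45 (log2, SE of the fit), or 42.2-fold, with a limma adjusted p of 0.00537. Since the solvent level is near the filter value, where array signals are compressed, the size of the fold is uncertain. Without TCDD array 1 the adjusted p was 0.0983 and without TCDD array 2 it was 0.153, on log2 changes of 5.55 and 5.25; the lone array is then assumed to vary like the other groups. The 4 arrays alone allow 6 labelings, and the exact permutation test of this value gave its smallest possible two-sided p, 0.333. The change was 5.60 at 2 h and 6.50 at 4 h.

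Tiparp encodes an ADP-ribosyltransferase that represses AhR in turn. Its probe set 1452160_at was at 3.5 and 3.6 in solvent and at 7.1 and 7.2 with TCDD, a change of 3.60 ± 0.58, or 12.1-fold. Both solvent values lie below the filter value, where signals are compressed, so the size of this fold is uncertain. The arrays of a group agreed within 0.1 and the groups did not overlap, yet the limma adjusted p was 0.21, since the fit shares the spread of all times and the 4 h TCDD arrays of this gene stood at 5.1 and 7.4. When 1 array was left out, its change stayed between 3.55 and 3.65. This probe set met the filter only through the TCDD arrays where it was high, so its adjusted p is no independent support. The other probe sets of Tiparp were higher by 3.20 and 3.15.

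The oxidising and reducing enzymes of the AhR battery followed with smaller changes. Cyp1b1, another P450 of this family, was at 8.4 and 7.7 in solvent and 9.9 and 9.5 with TCDD on 1416613_at, a change of 1.65 ± 0.40. Its limma adjusted p was 1, and 0.0387 with the set block. The other probe set, 1416612_at, was at 10.6 and 10.4 against 11.9 and 11.9, with an adjusted p of 0.603 even with the set block. Neither probe set's groups overlapped.

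Nqo1, a quinone reductase that is a target of both AhR and NRF2, was at 7.9 and 8.0 in solvent and 9.6 and 9.4 under TCDD. The change of 1.55 ± 0.19, or 2.93-fold, came close to the threshold, with a limma adjusted p of 0.08, and 0.0231 with the set block. Aldh3a1, an aldehyde dehydrogenase, was at 8.0 in both solvent arrays and at 10.6 and 9.9 with TCDD. That is 2.25 ± 0.31, or 4.76-fold, with an adjusted p of 0.141 without and 0.00907 with the set block. Both genes have levels in solvent well above the filter, so these folds suffer less from compression than that of Cyp1a1. From 2 h over 4 h to 6 h, the effect on Nqo1 was 0.80, 1.30 and 1.55, and on Aldh3a1 1.60, 1.90 and 2.25. The difference of 6 h from 2 h was 0.75 ± 0.27 for Nqo1 and 0.65 ± 0.43 for Aldh3a1, with limma adjusted p of 1 for both.

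Cpox makes protoporphyrinogen in the mitochondrion, a late step of haem synthesis, and P450 enzymes need haem. Probe set 1422492_at was at 6.0 and 5.7 in solvent and 8.0 and 7.6 with TCDD, a change of 1.95 ± 0.27 or 3.86-fold, with a limma adjusted p of 0.141, and 0.00962 with the set block. Probe set 1422493_at was higher by 1.60 ± 0.24, with 0.21 and 0.0311. All 4 TCDD values on both probe sets lay above the solvent values. Among the 11 tested genes of haem synthesis and breakdown, Cpox was alone in having both TCDD arrays above both solvent arrays. Alas1, Alad, Uros, Ppox and Blvra had them below, by 0.10 to 0.35. That is 9.09% above and 45.5% below, where 9.09% of all tested genes lay above and 10.0% below, and the median change over the list was −0.10.

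Gpc1 encodes glypican-1, a heparan sulfate proteoglycan anchored in the membrane that binds growth factors. It was at 5.7 and 6.7 in solvent and at 8.1 and 8.3 with TCDD. The change was 2.00 ± 0.33, or 4.00-fold, with a limma adjusted p of 0.21, and 0.00907 with the set block; the 2 solvent arrays differed by more than the 2 TCDD arrays. Among 9 tested glypicans and syndecans the median change was −0.05. Sdc1, syndecan-1, was at 8.7 and 8.9 against 8.1 and 8.3 with TCDD, −0.60 ± 0.25, the opposite direction. The unnamed probe set 1417225_at stood at 8.8 and 9.3 in solvent and 10.2 and 10.7 with TCDD.

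Of a list of 20 AhR target genes, 15 were on the array and 11 above the filter. In 7 of these 11 both TCDD arrays exceeded both solvent arrays, where 9.09% of all 9391 tested genes did so, and in 0 were both below, against 10.0% of all genes. Their median change was 0.95, and 1.10 and 0.90 by number, against −0.05 for all genes; 1 of the 11, Cyp1a1, passed. Beyond the genes above, these were Xdh, the xanthine dehydrogenase, at 8.4 and 8.1 against 9.3 and 9.0, and Nfe2l2, which encodes the antioxidant regulator NRF2, at 7.0 and 7.3 against 8.1 and 8.1. Their changes were 0.90 ± 0.20 and 0.95 ± 0.37. Cyp2s1, Slc7a5, Fmo2 and Enox2 stayed within 0.10 of no change, with overlapping groups. Cyp1a2, Ahrr, Gsta2 and Selenbp1 lay below the filter, with means over the 12 arrays of 3.69, 3.33, 3.70 and 3.60, and were not tested.

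The receptor's own complex showed little of this. Ahr was at 8.0 and 6.6 in solvent and 7.8 and 6.6 with TCDD, differing far more between the array sets than between treatments. Arnt was at 4.6 and 4.7 against 4.4 and 4.5. Hsp90aa1, the chaperone that holds the unbound receptor, was at 10.6 and 10.6 against 11.1 and 11.5, a difference of 0.70 ± 0.46. Nrip1, a nuclear receptor co-repressor, was at 5.8 and 5.8 against 6.2 and 6.6. Over the 11 tested genes of the complex and its partners, 3 had both TCDD arrays above, 27.3% against 9.09% of all genes, and 2 below, 18.2% against 10.0%. The median change was 0.15.

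**Figure D2:**
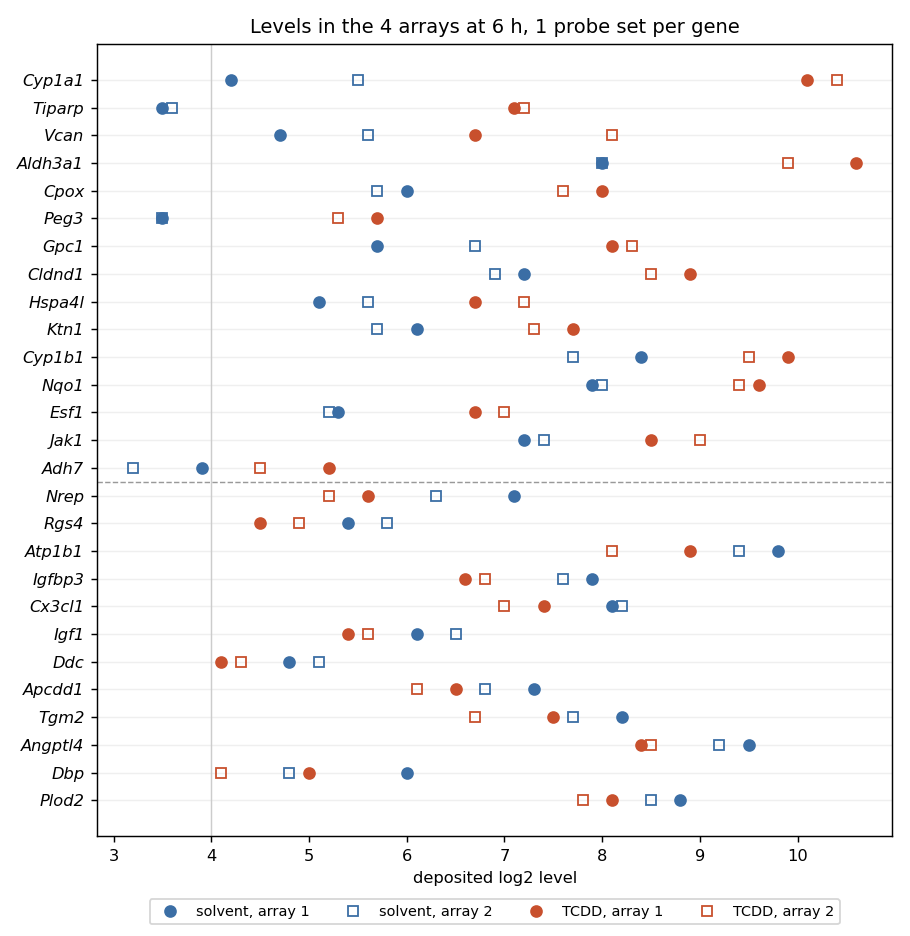
Deposited log2 levels (x axis) in the 4 arrays at 6 h for the 15 genes highest and, under the dashed line, the 12 lowest by the smaller of the 2 within-number differences; filled and open symbols are arrays 1 and 2. The solvent and TCDD arrays do not overlap in any gene above the line and overlap only in Dbp below it.

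Many of the probe sets picked for a difference at 6 h changed little at 2 h, and some of these had begun to rise at 4 h. Of the 42 probe sets with both differences of 1 or more, 24 had a change under 0.5 at 2 h, and 16 a change under 0.5 at both 2 h and 4 h. Already at 2 h, 11 had 1 or more. Over all tested probe sets the median absolute change was 0.1 at 2 h and 0.15 at 4 h, so small changes are common there. Since the 42 were picked by their 6 h values, smaller changes at other times follow in part from the choice. These counts are no result about the 42. The effect at 6 h minus that at 2 h, tested in the same limma fit, passed in 0 probe sets, 0%, with 228 at an unadjusted p under 0.05, 1.45%. The effect at 6 h minus that at 4 h also passed in 0, 0%, with 98 unadjusted, 0.622%. The late genes are therefore described by their levels and by no call.

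Vcan, which encodes versican, a large chondroitin sulfate proteoglycan of the matrix, was at 4.7 and 5.6 in solvent and 6.7 and 8.1 with TCDD on 1427256_at. The change was 2.25 ± 0.56, or 4.76-fold, against −0.10 at 2 h and 0.35 at 4 h. Both 6 h TCDD arrays lay above all other 10 arrays, whose highest was 5.6. Its other probe sets were higher by 1.50 and 0.40. Peg3, an imprinted zinc-finger gene expressed from the paternal copy, was at 3.5 in both solvent arrays and 5.7 and 5.3 with TCDD on 1433924_at, and at 4.6 and 4.7 against 6.1 and 6.2 on 1417355_at. The first of these was higher by 2.00 ± 0.32, against −0.15 at 2 h and 0.95 at 4 h. At 4 h it differed by 0.2 within number 1, across the array sets, and by 1.7 within number 2, inside the larger set. On 1417355_at these 4 h differences were −0.1 and 1.2. The limma adjusted p of 1433924_at was 0.21, and 0.0772 with the set block. Its mean over the 12 arrays was 4.03, so it met the filter only through the TCDD arrays where it was high. These p-values are thus no independent support. The solvent level of this probe set is below the filter value, so its fold is uncertain.

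Rock1, a kinase that drives actin contraction, was at 5.7 and 5.8 in solvent and 6.9 and 7.2 with TCDD on 1450994_at. The change was 1.30 ± 0.27, against −0.70 at 2 h and 0.15 at 4 h. The 6 h effect exceeded the 2 h effect by 2.00 ± 0.38, with an unadjusted p of 0.00043 and a limma adjusted p of 1. At 2 h the solvent arrays of Rock1 were at 6.3 and 6.8, higher than at 6 h, so the late difference includes a lower solvent level at 6 h as well as a higher TCDD level. The other probe sets of Rock1 were higher by 1.20 and 1.25 at 6 h.

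Mki67, the proliferation marker Ki-67, was at 6.0 and 5.1 in solvent and 7.0 and 6.9 under TCDD. The change was 1.40 ± 0.50, against −0.15 and −0.40 earlier. Solvent array 2 was the lowest of the 6 solvent arrays, the others lying between 5.7 and 6.5. Smc4, a condensin subunit that compacts chromosomes, was at 7.0 and 6.0 against 7.9 and 7.9, with a wide error, 1.40 ± 0.69. Its 4 h differences on 1452197_at were −1.7 within number 1 and 0.8 within number 2. Kmt2e, a chromatin protein, was at 6.9 and 6.5 against 7.5 and 7.3. Its difference at 6 h was 0.70 ± 0.61, within reach of its error, and it entered the late group through −1.35 at 2 h.

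Ktn1, a kinesin-binding protein of the endoplasmic reticulum, was at 6.1 and 5.7 in solvent and 7.7 and 7.3 with TCDD. Esf1, a nucleolar protein of ribosomal RNA processing, was at 5.3 and 5.2 against 6.7 and 7.0, and both TCDD values exceeded all other 10 arrays. Hspa4l, a chaperone of the Hsp110 family, was at 5.1 and 5.6 against 6.7 and 7.2. Each was higher by 1.60 at 6 h, with SE between 0.41 and 0.52. Their changes at 2 h were 0.05, −0.20 and 0.35, and at 4 h 0.80, 0.60 and 0.80. Within number 2 at 4 h, inside the larger array set, they were already higher by 1.4, 0.9 and 1.2. Within number 1, across the sets, the 4 h differences were 0.2, 0.3 and 0.4. At 6 h the groups overlapped in none of these genes, and the limma adjusted p was 1 for all.

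Some of the 15 genes with the highest smaller difference had begun earlier. Cldnd1, a membrane protein with a claudin domain, was at 7.2 and 6.9 in solvent and 8.9 and 8.5 with TCDD on 1429555_at, and its changes over time were 0.95, 1.25 and 1.65. Jak1, the kinase that signals for many cytokine receptors, was at 7.2 and 7.4 against 8.5 and 9.0 on 1433803_at, with changes of 0.70, 0.75 and 1.45. Adh7, an alcohol dehydrogenase that also oxidises retinol, was at 3.9 and 3.2 against 5.2 and 4.5 on 1421058_at, close to background. This probe set met the filter, at a mean of 4.03, only through its TCDD arrays. The other Adh7 probe set was at 5.8 and 6.1 against 6.6 and 6.4, a smaller difference of 0.55.

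**Figure D3:**
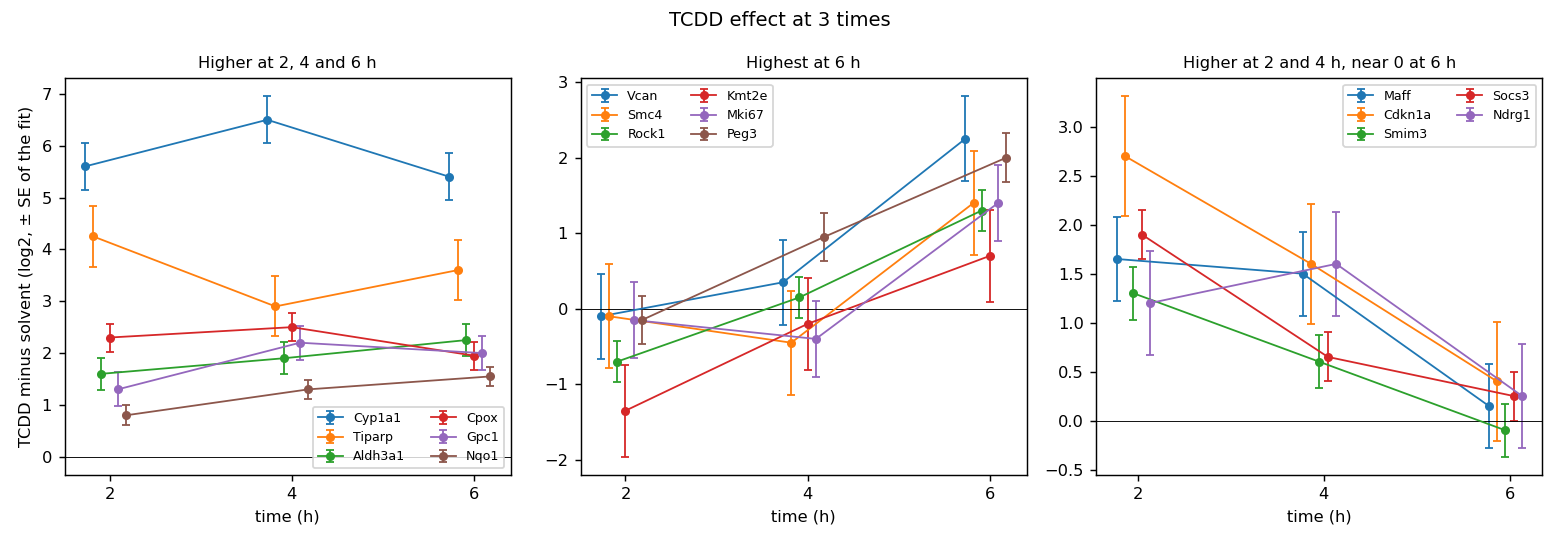
TCDD minus solvent (log2, y axis) at 2, 4 and 6 h (x axis, points offset for legibility), with the SE of the fit as bars, for 1 probe set of each gene; each panel has its own y scale. The left panel holds genes with an effect at every time, the middle one Vcan, Peg3 and others near or below 0 at 2 h and between 0.70 and 2.25 at 6 h, and the right one genes that are back within 0.40 of 0 at 6 h.

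The opposite time course was seen in regulators that TCDD arrays carried at higher levels early. Cdkn1a, the cell-cycle inhibitor p21, was higher by 2.70 at 2 h and 1.60 at 4 h, and at 6 h stood at 5.6 and 6.6 in solvent and 6.1 and 6.9 with TCDD on 1424638_at. Maff, a small Maf protein that pairs with NRF2 and AP-1 factors, was higher by 1.65 and 1.50 and at 6 h stood at 6.7 and 7.1 against 7.0 and 7.1. Socs3, which blocks JAK signalling, was higher by 1.90 and 0.65, and at 6 h stood at 7.2 and 7.1 against 7.5 and 7.3 on 1456212_x_at. Ndrg1, a stress-induced gene of hypoxia and metals, was higher by 1.20 and 1.60 and at 6 h stood at 6.1 and 6.3 against 6.3 and 6.6 on 1423413_at. Smim3, a small membrane protein, was higher by 1.30 and 0.60 and at 6 h stood at 7.2 and 7.8 against 7.3 and 7.5. The 4 h values owe most to TCDD array 1, which lay in the other array set than its solvent array. Within numbers 1 and 2 they were 2.5 and 0.7 for Cdkn1a, 2.0 and 1.0 for Maff, 1.1 and 0.2 for Socs3, 2.2 and 1.0 for Ndrg1, and 1.1 and 0.1 for Smim3, so the difference within the larger set, that of number 2, was the smaller one in each. At 6 h the differences of these 5 genes lay between −0.10 and 0.40. Except for Socs3, whose probe set differed by 0.25, their solvent and TCDD arrays overlapped or touched. The difference from 2 h was −1.65 for Socs3, with a limma adjusted p of 1 as for the others. For Cdkn1a and Maff, leaving out solvent array 1 turns the sign at 6 h.

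Large differences downward were few. In a bulk culture, fewer cells of a kind and less RNA per cell cannot be told apart. Nrep, the neuronal regeneration related protein, was at 7.1 and 6.3 in solvent and 5.6 and 5.2 with TCDD on 1450839_at, −1.30 ± 0.28 with a limma adjusted p of 0.92. Its other probe set was at 6.5 and 5.3 against 5.3 and 4.2, where the groups touch. Rgs4, which shuts off G protein signals, was at 5.4 and 5.8 against 4.5 and 4.9 on 1416286_at, −0.90 ± 0.19, after −1.45 at 2 h and −1.25 at 4 h. The other Rgs4 probe set differed by −0.15, so the probe sets disagree.

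Igfbp3, which binds insulin-like growth factors, was at 7.9 and 7.6 in solvent and 6.6 and 6.8 with TCDD, −1.05 ± 0.24. Igf1, the growth factor itself, was at 6.1 and 6.5 against 5.4 and 5.6 on 1452014_a_at, −0.80 ± 0.21. Its 2 other probe sets lay below a level of 5 and differed by −0.35 on 1419519_at and 0.05 on 1437401_at, so the probe sets disagree. Angptl4, an inhibitor of lipoprotein lipase, was at 9.5 and 9.2 against 8.4 and 8.5. Apart from 1437401_at, the groups did not overlap in any of these, and the limma adjusted p was 1.

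Cx3cl1, the membrane-bound chemokine fractalkine, was at 8.1 and 8.2 in solvent and 7.4 and 7.0 with TCDD on 1415803_at, −0.95 ± 0.23. Apcdd1, an inhibitor of Wnt at the cell surface, was at 7.3 and 6.8 against 6.5 and 6.1 on 1418382_at. Tgm2, which crosslinks matrix proteins, was at 8.2 and 7.7 against 7.5 and 6.7 on 1437277_x_at, and Plod2, a lysyl hydroxylase of collagen, at 8.8 and 8.5 against 8.1 and 7.8 on 1416687_at. Ddc, the decarboxylase that makes dopamine and serotonin, was at 4.8 and 5.1 against 4.1 and 4.3. Atp1b1, a subunit of the sodium pump, was at 9.8 and 9.4 against 8.9 and 8.1 on 1423890_x_at, while 1455949_at did not differ, at 5.1 and 5.3 against 5.3 and 5.1. The groups were also apart on 1451152_a_at. They touched on 1418453_a_at, at 9.3 and 8.6 against 8.6 and 7.7, and overlapped on 1439036_a_at, at 10.0 and 9.2 against 9.4 and 8.1. Dbp, a transcription factor driven by the clock, was at 6.0 and 4.8 against 5.0 and 4.1 on 1438211_s_at. Within each number it was lower, but its groups overlapped. The limma adjusted p was 1 for all these genes.

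The gene lists are described by direction and median, and Cyp1a1 was the only member of any list past the limma test. The shares to set beside each count are the 9.09% of all genes with both TCDD arrays above and the 10.0% with both below. With so few members, no list is shown to differ from these shares. Of 17 tested NRF2 antioxidant targets, 2 had both TCDD arrays above and 1 below both solvent arrays, 11.8% and 5.88%, with a median of 0.15. Gstm1, a glutathione transferase, was the larger at 9.1 and 9.4 against 9.6 and 9.7 on 1416416_x_at. Probe sets 1448330_at and 1425627_x_at were higher by 0.40 and 0.15, while 1425626_at did not differ, at 5.5 and 5.4 in both groups. Of 4 metallothionein genes, 0 parted the groups. Hypoxia and glycolysis genes had the lowest median, −0.25, with 6 of 19 below, 31.6%, and 0 above. Slc2a1, the glucose transporter, was at 9.5 and 9.5 in solvent and 9.2 and 9.1 with TCDD. Pdk1, which holds back pyruvate oxidation, was at 7.2 and 7.3 against 6.8 and 7.0. By number the list's medians were −0.10 and −0.30. Sterol and fatty acid genes had 1 of 18 above, Scd1, and 3 below, and unfolded protein response genes 1 of 24 above, Hsp90b1, and 3 below. The shares below, 16.7% and 12.5%, were near the 10.0% of all genes.

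Among cell-cycle genes, those of G2 and mitosis had 6 of 24 above, 25.0% against 9.09% of all genes, and 1 below, 4.17% against 10.0%, with a median of 0.10. Bub1, a spindle checkpoint kinase, was at 5.9 and 5.1 in solvent and 6.5 and 6.0 with TCDD. Ttk, another checkpoint kinase, was at 5.6 and 5.1 against 5.9 and 6.2, and Cenpf of the kinetochore at 4.3 and 4.0 against 4.7 and 4.6. Against these, Cdk1 was at 10.5 and 10.4 against 10.2 and 10.3, and Plk1 and Cdc20 did not differ in their means. Of 23 tested genes of G1 and S phase, 2 lay above and 3 below, 8.70% and 13.0%, near the shares of all genes. Of 17 p53 targets and CDK inhibitors 3 and 3 did so, 17.6% each.

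Among all genes 10.0% lay below and 9.09% above, and the signalling lists are set beside these shares. TGF-beta responsive genes had 6 of 22 below, 27.3%, and 2 above, 9.09%, with a median of −0.17. Ccn2, a matricellular protein, was at 9.6 and 9.9 in solvent and 8.3 and 9.5 with TCDD, most of it in array 1. BMP and Id genes had 5 of 16 below, 31.2%, and 2 above, 12.5%. Id3, an inhibitor of bHLH factors induced by BMP, was at 10.2 and 10.1 against 9.7 and 9.4, −0.60 ± 0.21. Grem1, a secreted BMP antagonist, was at 6.4 and 7.1 against 8.0 and 7.9, 1.20 ± 0.32. Immediate-early and AP-1 genes had 4 of 24 below, 16.7%, namely Fos, Jun, Mafk and Dusp1, and 0 above.

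In the EGF receptor list 2 of 10 were above, 20.0% against 9.09% of all genes, and 1 below, the 10.0% of all genes. In the Wnt list 1 of 15 was above and 2 below, 6.67% and 13.3%. Dkk3, a secreted Dickkopf protein, was at 7.0 and 6.8 in solvent and 6.5 and 5.8 with TCDD. In the Notch list 0 of 15 were above and 2 below, in the RGS list 0 of 7 and 1, and in the clock list 1 of 14 and 2. Their shares below, 13.3%, 14.3% and 14.3%, were near that of all genes. The RGS gene below was Rgs19, at 7.9 and 7.9 in solvent and 7.7 and 7.8 with TCDD. Rgs4 entered its list through 1416287_at, the probe set with the higher mean, on which the groups overlapped. Tef, a PAR bZIP factor related to Dbp, was at 7.9 and 7.6 against 7.4 and 7.1.

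Genes by which thymic stroma acts on immune cells lay in both directions. Kitl, the Kit ligand that supports early thymocytes, was at 7.6 and 7.3 in solvent and 8.4 and 8.6 with TCDD on 1415855_at, 1.05 ± 0.38. Probe set 1448117_at was higher by 1.10. The groups overlapped on 1426152_a_at, near the filter value, at 3.9 and 4.4 against 4.0 and 4.4, so the probe sets disagree. Tslp, a cytokine of epithelium that acts on dendritic cells, was at 4.9 and 4.2 against 5.8 and 5.1, and Gdnf, a neurotrophic factor, at 4.0 and 4.0 against 5.1 and 4.8. Csf1, the macrophage growth factor, was at 9.0 and 8.7 against 8.3 and 8.5. In all, 4 of 18 stromal cytokines and their feedback genes lay above, 22.2% against 9.09% of all genes, and 5 below, 27.8% against 10.0%, with a median of 0.00.

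Chemokines had 4 of 15 below, 26.7% against 10.0% of all genes, and 0 above, against 9.09%. Next to Cx3cl1, the neutrophil attractant Cxcl1 was at 11.5 and 11.8 in solvent and 11.0 and 11.1 with TCDD, and the monocyte attractant Ccl2 at 8.1 and 8.8 against 7.6 and 8.0. Cxcl12, which draws thymocyte precursors, was at 12.6 and 12.3 against 12.4 and 12.3, and Ccl25 at 5.6 and 6.4 against 5.6 and 6.7, both overlapping. NF-kB targets had 4 of 18 below, 22.2%, and 0 above, Cxcl1 and Ccl2 again among them with Csf1 and Relb. Antigen presentation and interferon genes had 2 of 18 below, 11.1% and so near the share of all genes, and 0 above.

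Matrix genes had 4 of 30 above, 13.3% against 9.09% of all genes, and 1 below, 3.33% against 10.0%. Antxr2, an anthrax toxin receptor that binds matrix proteins, was at 6.5 and 6.7 in solvent and 7.2 and 7.9 with TCDD, and Ptx3, a pentraxin of innate defence, at 8.3 and 8.3 against 9.3 and 9.0. The Antxr2 difference was 0.95 ± 0.24. Prostaglandin genes had 1 of 8 above, the phospholipase Pla2g4a at 7.3 and 7.0 against 8.1 and 8.0, and 1 below, 12.5% each.

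**Figure D4:**
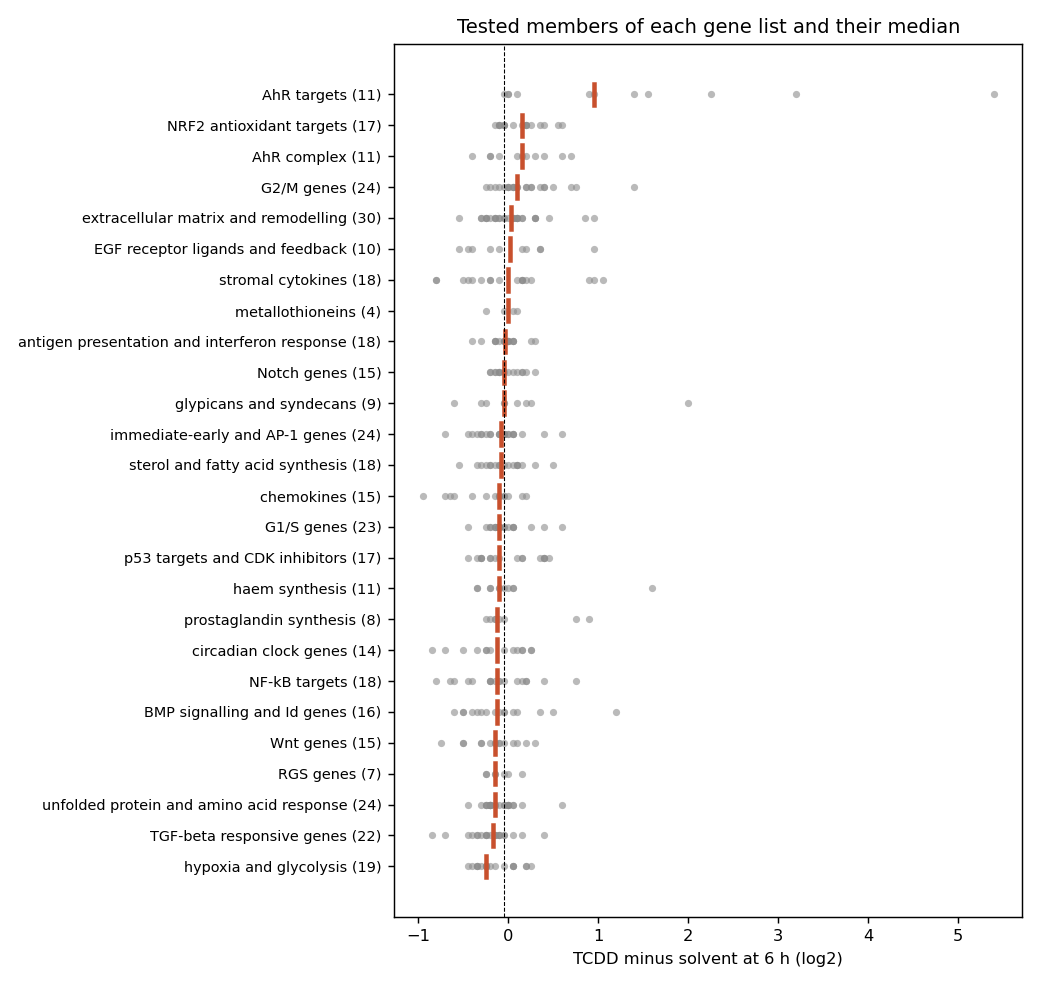
Log2 change at 6 h (x axis) of every tested member of each gene list (grey points, 1 probe set per gene, number of genes in brackets), with the list's median as a bar and the median of all 9391 tested genes, −0.05, as a dashed line. The AhR targets have a median of 0.95, and the medians of all other lists lie between −0.25 and 0.15.

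Markers of cell types differed little between the treatments. The mean log2 level of the 16 fibroblast and mesenchyme markers was 10.28 and 9.99 in solvent and 10.28 and 9.96 with TCDD. That of the 17 cortical markers was 5.22 and 5.37 against 5.26 and 5.43, that of the 12 medullary markers 4.03 and 4.22 against 4.06 and 4.15, that of the 14 thymocyte and blood markers 3.94 and 4.04 against 3.88 and 4.00, and that of the 9 endothelial markers 4.00 and 4.10 against 4.07 and 4.00. Ptprc, the pan-leukocyte marker, had a mean of 2.80 over the 12 arrays. Each list differed more between array 1 and array 2 than between treatments, except the endothelial one.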

How the data were processed

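RNA of ET cells was measured on 12 Affymetrix arrays, 2 for each treatment and time. The authors' deposited values are log2 levels per probe set with 1 decimal, and RMA was the method per the submitters' processing notes. Its version, the software and the annotation build are not given in the sources used here. The method equalises the arrays' distributions, which hides any shift common to all genes, and it compresses differences near background. No depth applies to arrays, and their number limits the precision.

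Of 22690 probe sets, 64 were controls. Of the other 22626, 20380 had 1 gene symbol in the platform annotation, 691 had several and 1555 none, and 20351 were matched to RefSeq (GRCm38.p6), which changed 0 symbols. The filter, a mean log2 of 4 or more, kept 15762 probe sets, 14495 with 1 symbol, of 9391 genes. Just inside it, within 0.1, were 510 probe sets, and just outside 469. In R 4.3.3, limma 3.58.1 was fitted to 6 group means over all 12 arrays (6 residual degrees of freedom), with empirical Bayes variances, two-sided tests and Benjamini-Hochberg adjustment over all tested probe sets. The script was checked on simulated data.

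Deviations of same-numbered arrays from their group means correlated at 0.37, 0.16 and 0.71 at 2, 4 and 6 h. Each is over 0.1, so the replicate numbers were taken to pair the arrays. At 4 h the pairing is weak: solvent array 1 and TCDD array 1 lay in different array sets. The fit without a block was kept as the main one. Array sets were the largest of 4 complete-linkage clusters against the rest.

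The genes and lists were chosen with earlier results of these data known. Named were genes past the test, with or without the set block; the 15 highest and 12 lowest by the smaller within-number difference; the 5 highest and 5 lowest by that difference less the mean of the 2 h and 4 h ones; and up to 4 members of each list, with 1 probe set per gene. Other list members and genes in the text were picked after their values were seen. The alternatives were other blocks, filters, variance models, controls and scalings, and leaving out each array.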

Additional observations from a re-analysis of the deposited data

Results flagged for a closer look

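Arrays of opposite direction at 2 h and at 6 h marked a pair of genes. In Rock1 (1450994_at) both TCDD arrays lay below their solvent arrays at 2 h and above them at 6 h, and the effect at 6 h exceeded that at 2 h by 2.00 ± 0.38, with a limma adjusted p of 1. In Kmt2e (1434704_at) the same held with a difference of 2.05, and this one did not pass its test either. The other probe sets were mixed. On 1423445_at of Rock1 the TCDD arrays were at 3.7 and 3.7 against 4.0 and 4.6 in solvent at 2 h. At 6 h they were at 4.8 and 5.3 against 3.7 and 3.9, the same reversal. On 1427236_a_at of Kmt2e and on 1423444_at of Rock1 the groups overlapped at 2 h. The effects at 2 h and 6 h share no arrays.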

How the results depend on the processing

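The count of probe sets past the limma test at 6 h, 1 as reported, was 8 with the array set as a block, 11 with the 4 h and 6 h solvent arrays together as the control, 15 with the solvent arrays of all times as the control, and 0 without variance moderation, with only the 4 arrays at 6 h, and with those 4 arrays and a replicate block. At an unadjusted p under 0.05 those last 3 fits had 405, 611 and 3013. Leaving out 1 array at a time gave 0 to 7: 0 without either 6 h TCDD array (578 and 252 unadjusted) and 7 without either 4 h TCDD array, those of Cyp1a1, Cpox, Nqo1 and 2 each of Peg3 and Tiparp. The pooled controls also mix times, which the report's comparison does not. With the replicate block within each time the count was 1, Cyp1a1 at an adjusted p of 0.00614, and over all times 1, at 0.0157; pairing changed no other call. Cyp1a1 passed in 21 of 26 alternatives, with log2 changes from 4.75 to 6.05 and adjusted p from 4.16e-05 to 0.986. The differences of 6 h from 2 h and from 4 h had 0 calls under every alternative run. At 0.5 in place of 1, both within-number differences were met by 369 probe sets upward and 81 downward. Of 36 genes named for their own change, 33 kept their sign in all alternatives. Most of them were chosen because both within-number differences at 6 h had 1 sign. The blocks, filters and variance models leave the log2 change as it is. The count was thus largely fixed by the choice and is no support. Maff ran from −0.05 to 0.35, Cdkn1a from −0.10 to 0.90 and Smim3 from −0.40 to 0.20 when 1 array was left out, the sign turning without solvent array 1 at 6 h for Maff and Cdkn1a and without solvent array 2 for Smim3. With all solvent arrays as the control Maff was at −0.03 and Smim3 at 0.07, and Smim3 was at 0.05 with the 4 h and 6 h ones; the cause was not tested. With 2 arrays per group, a gene that missed the threshold is not shown to be unchanged.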

Other observations

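Hspa1b, an inducible Hsp70 chaperone, showed the largest downward difference within number 1 and little difference within number 2. Solvent array 1 at 6 h stood at 8.6 on 1452318_a_at, 8.4 on 1427127_x_at and 8.2 on 1427126_at, while solvent array 2 and both TCDD arrays lay between 6.1 and 6.7 on all 3. By group means this reads as a lower level with TCDD, but it rests on 1 solvent array. The gene was chosen after its values were seen.

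A few more genes had both within-number differences of 1 or more and are named here after their values were seen. Smc3, a cohesin subunit, was at 6.2 and 6.0 in solvent and 7.2 and 7.3 with TCDD. Ranbp2, a nuclear pore protein, was at 6.1 and 6.1 against 7.2 and 7.3 on 1450690_at. Nfat5, a transcription factor of osmotic stress, was at 6.2 and 5.7 against 7.3 and 7.7 on 1438999_a_at. Nr3c1, the glucocorticoid receptor, was at 7.1 and 6.8 against 8.4 and 8.1 on 1460303_at and, unlike the other 3, was already higher by 1.00 at 2 h.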
